A study of Mus musculus with 16 samples.

Results

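Chromosome 19 was examined in immortalised mouse embryonic fibroblasts (MEFs), because its reads were in excess in every library of MEF-1, 1 of the 2 cell families studied. The chromosome was chosen by its read coverage, so the coverage is given as a description and was not tested. The members are the CpGs of chromosome 19 with 10 or more reads in all 16 libraries. They number 53605 of the 1319716 CpGs on the 19 autosomes that met the same minimum, and 8140 of them had 40 or more reads in all 14 clonal lines. The lowest read count of a CpG decided its place, and the 6273 CpGs with 10 or 11 reads in their poorest library had a mean level of 37.0% in the clonal lines of MEF-1 and 35.4% in those of MEF-2. At the 7051 CpGs left out with 8 or 9 reads these means were 35.6 and 34.7%.

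The cells came from E13.5 embryos of the inbred strain C57BL/6J, 1 male (MEF-1) and 1 female (MEF-2), and the parental lines became immortal after serial passaging past crisis. Single cells sorted by flow cytometry gave 7 clonal lines of each parent, each expanded from its 1 cell, and the labels name no treatment or genetic change of any line. Target capture bisulfite sequencing (tcBS-seq) then measured the share of methylated reads per CpG, once per line. Each parental line is 1 library without replicates, and the 7 lines of a family share 1 embryo and 1 culture, so that embryo, sex and culture history cannot be told apart and p-values over lines measure only the spread between these lines. The strain is inbred, and reads of the single chromosome copies could not be separated.

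Methylation of cytosine at CpG sites is copied to the new DNA strand after replication by the maintenance methyltransferase, and in differentiated cells most CpGs are either methylated on all chromosome copies or on none. In a line grown from 1 cell, a CpG whose copies keep their states can therefore take only a few levels: 0, 50 or 100% with 2 copies, and 0, 33.3, 66.7 or 100% with 3 copies. Gains and losses of whole chromosomes are common in mouse fibroblasts that have passed crisis, and mouse chromosome 19 is the smallest autosome.

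The 6 sequences printed first are shown because their central CpG lay near 33.3 or 66.7% in all 7 MEF-1 clonal lines and at 40 to 60% in all 7 MEF-2 clonal lines. They are given from GRCm38 (the same build as mm10), forward strand, with the measured CpG in capitals and 30 bases on each side.
Near Pank1, chr19:34879799-34879860: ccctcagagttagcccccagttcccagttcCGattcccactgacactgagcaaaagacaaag
Near Ctsf, chr19:4854439-4854500: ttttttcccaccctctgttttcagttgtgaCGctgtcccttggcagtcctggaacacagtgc
Near Jak2, chr19:29236603-29236664: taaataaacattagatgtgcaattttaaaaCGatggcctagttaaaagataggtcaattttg
Lipa exon, chr19:34526441-34526502: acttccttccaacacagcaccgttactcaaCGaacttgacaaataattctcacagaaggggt
E030044B06Rik exon, chr19:40873780-40873841: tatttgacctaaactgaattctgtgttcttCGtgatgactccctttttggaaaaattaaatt
Ablim1 intron, chr19:57198923-57198984: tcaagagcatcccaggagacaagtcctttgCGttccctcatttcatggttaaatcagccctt

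Stretches of a different kind lay in regions or promoters that differed between the families, and 4 of them are shown with every CpG in capitals, measured or not. The promoter of Trpm6 and an intron of Prkg1 were more methylated in MEF-1, and the promoter of Stambpl1 and an intron of Emx2 were more methylated in MEF-2. All are from GRCm38, on the forward strand, which is also the coding strand of Trpm6 and Stambpl1. The printed Stambpl1 bases hold 10 CpGs, of which 5 were measured, and the level of its promoter rests on 18 CpGs of a longer stretch.
Trpm6, 250 bases before the start, chr19:18749733-18749982: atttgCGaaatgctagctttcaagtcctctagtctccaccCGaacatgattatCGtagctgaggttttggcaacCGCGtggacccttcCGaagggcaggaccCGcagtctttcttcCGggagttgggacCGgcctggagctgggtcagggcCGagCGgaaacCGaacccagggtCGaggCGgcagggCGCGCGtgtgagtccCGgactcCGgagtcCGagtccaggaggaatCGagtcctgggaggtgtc
Prkg1 intron, chr19:31763592-31763634: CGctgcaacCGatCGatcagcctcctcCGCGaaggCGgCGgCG
Stambpl1, 250 bases before the start, chr19:34191979-34192228: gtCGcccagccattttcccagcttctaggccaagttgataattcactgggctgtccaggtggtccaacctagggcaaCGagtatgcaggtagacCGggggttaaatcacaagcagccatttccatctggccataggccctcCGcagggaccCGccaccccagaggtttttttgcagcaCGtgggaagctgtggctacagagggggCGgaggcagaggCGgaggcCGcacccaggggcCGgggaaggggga
Emx2 intron, chr19:59460758-59460948: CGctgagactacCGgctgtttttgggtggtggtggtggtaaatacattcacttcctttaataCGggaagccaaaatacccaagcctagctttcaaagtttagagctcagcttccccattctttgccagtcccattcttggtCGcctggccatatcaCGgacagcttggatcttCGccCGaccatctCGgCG

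Library depth ranged from 59243669 to 90633091 calls (1 call is 1 read over 1 CpG). Promoters of Vim and Col1a2, which encode fibroblast proteins, were below 2% methylated in both families, and that of the blood gene Ptprc was at 74.7% (MEF-1) or 84.9% (MEF-2). The promoter of the receptor gene Pdgfra was at 53.0% in MEF-1 against 3.27% in MEF-2, that of Thy1 at 96.5 against 95.7% and that of S100a4 at 57.3 against 60.2%. Of the markers of other cell types, the blood genes Spi1 and Cd79a were at 59.4 to 77.4%, the endothelial genes Pecam1 and Tie1 at 58.6 to 82.1% and the epithelial gene Krt8 at 95.9 and 82.0%. The epithelial genes Cdh1 (24.0 and 15.1%) and Epcam (22.6 and 10.3%) were lower, and the RNA of these markers was not analysed here. MEF-1 lines 1, 4 and 5 stood apart by a low coverage of chromosome 18. MEF-2 line 3 stood apart by a low coverage of chromosomes 2 and 14 and by fewer levels near 50% than the other MEF-2 lines. Results are given with and without these lines where that changed a call.

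Coverage of chromosome 19, set to 1 at the median MEF-2 clonal line after scaling each library to its median autosome, was 1.45, 1.45, 1.38, 1.45, 1.39, 1.46 and 1.35 in MEF-1 clonal lines 1 to 7. The MEF-1 parental line had 1.31. In the MEF-2 clonal lines it lay between 0.986 and 1.01, and the MEF-2 parental line had 1.01. Taken as 2 copies in MEF-2, these values correspond to 2.71 to 2.91 copies in the MEF-1 clonal lines and 2.62 in their parent, all under 3. A mixture of cells with 2 and 3 copies cannot be told apart here from an error of this estimate. The gain covered the whole chromosome: all 30 windows of 2 Mb exceeded 1.2 in each of the 8 MEF-1 libraries, and none did in the 8 MEF-2 libraries. The lowest window of any MEF-1 clonal line was at 1.32 (line 7) and the highest window of any MEF-2 library at 1.097 (clonal line 6). Median reads per member CpG were 34 to 50 in the MEF-1 and 26 to 35 in the MEF-2 clonal lines. Because read sampling alone widens a level, distributions were compared at the CpGs with 40 or more reads, each call thinned to 40.

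**Figure D1:**
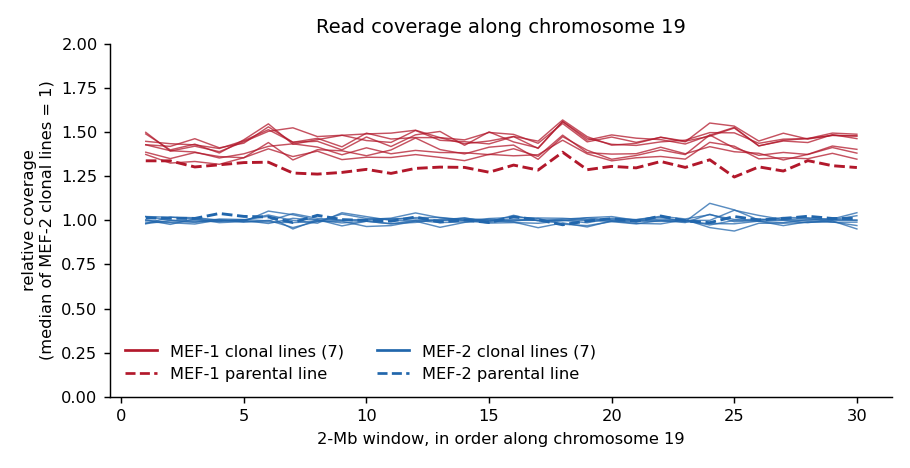
Relative coverage (y axis, median of the MEF-2 clonal lines set to 1) in 30 consecutive windows of 2 Mb along chromosome 19 (x axis), 1 line per library. Every MEF-1 library lies above 1.2 in all windows, and every MEF-2 library lies below 1.2.

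Levels between 10 and 90% were distributed differently on the chromosome with raised coverage. In the MEF-1 clonal lines, calls on chromosome 19 between 20 and 80% had 1 maximum at 32.5% and another at 70%, with a low between them at 52.5%. In the MEF-2 clonal lines, the same CpGs had their maximum in this range at 50%. On the 16 other autosomes that the study kept (all but chromosomes 12, 18 and 19, with 142195 CpGs at this depth) the MEF-1 lines also had it at 50%. Of the chromosome 19 calls between 10 and 90%, 13.8% ± 1.13 (SD, n = 7) lay within 5 points of 33.3% in MEF-1, 16.5% ± 1.19 within 5 points of 66.7% and 28.0% ± 1.62 within 10 points of 50%. The MEF-2 lines had 11.1% ± 0.654, 10.9% ± 0.608 and 45.9% ± 4.13 (SD, n = 7) in the same windows. Elsewhere in the genome the MEF-1 lines had 10.8% ± 0.412, 11.9% ± 0.681 and 45.1% ± 3.59 (SD, n = 7).

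**Figure D2:**
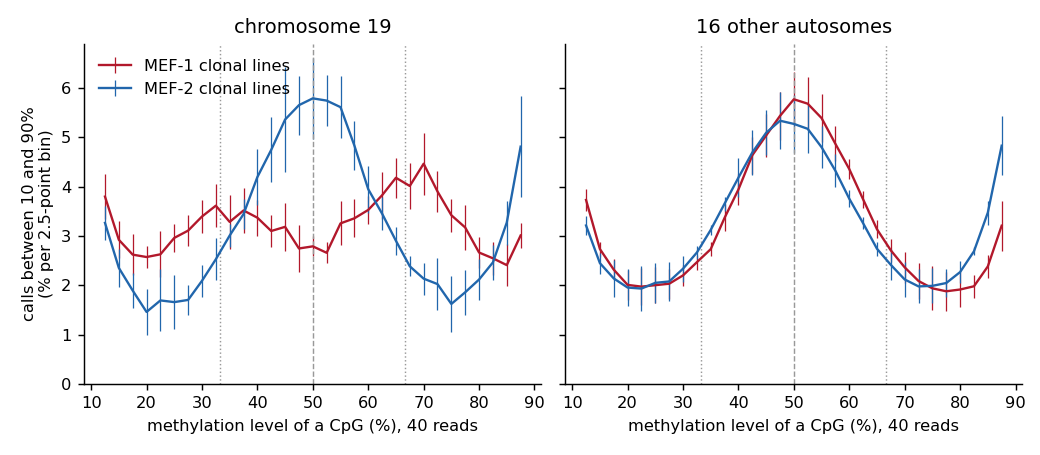
Share of calls (y axis, % of the calls between 10 and 90% in bins of 2.5 points, mean ± SD of 7 clonal lines) by methylation level (x axis, %) at CpGs with 40 or more reads, thinned to 40. Between 20 and 80% on chromosome 19 the MEF-1 curve peaks at 32.5 and 70% with a low between them at 52.5%, the MEF-2 curve has its peak at 50%, and on the other autosomes the families share a peak near 50%.

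The share of calls near 33.3 or 66.7% minus the share near 50%, windows of equal total width, is called the 3-copy excess below. The name stands for these windows and not for a number of copies. Similar values were found at lowered coverage, as for chromosome 17 in MEF-1 line 1 (coverage 0.814, 4.70 points) and chromosome 14 in MEF-2 line 3 (0.763, 3.13 points). At 40 reads the former windows hold 8 possible levels and the latter 9, so that an even spread over all levels between 10 and 90% would give -3.23 points, and values are compared with each other and not with 0. On chromosome 19 it was -0.771, 4.26, 1.17, 1.78, 4.89, 3.505 and 1.33 points in MEF-1 clonal lines 1 to 7. On the other autosomes of the same lines it was -17.3, -28.0, -26.9, -19.2, -18.1, -23.7 and -23.6 points. Each MEF-1 line thus had a higher value on chromosome 19, by 16.5 (line 1) to 32.3 points (line 2).
The MEF-2 clonal lines had -24.4, -25.7, -13.0, -24.1, -25.0, -27.9 and -27.6 points on chromosome 19, and their difference from the other autosomes was -5.0015 to -2.61 points. The 7 MEF-1 and 7 MEF-2 values did not overlap, also with MEF-2 line 3, whose value lay nearest to MEF-1. The difference of chromosome 19 from the other autosomes was 28.3 points larger in MEF-1 than in MEF-2 (exact permutation test over lines, two-sided, p = 0.000583, which is the smallest that 7 against 7 lines allow, and 0.000971 after adjustment over the 5 tests on values per line). Without MEF-1 lines 1, 4 and 5 it was 31.7 points (exact permutation test, p = 0.00303), and at 20 reads, thinned to 20, it was 17.9 points (exact permutation test, p = 0.000583).
In the parental lines, which were not cloned, the 3-copy excess was -6.53 on chromosome 19 and -12.4 elsewhere in MEF-1, and -6.33 and -5.70 in MEF-2.

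**Figure D3:**
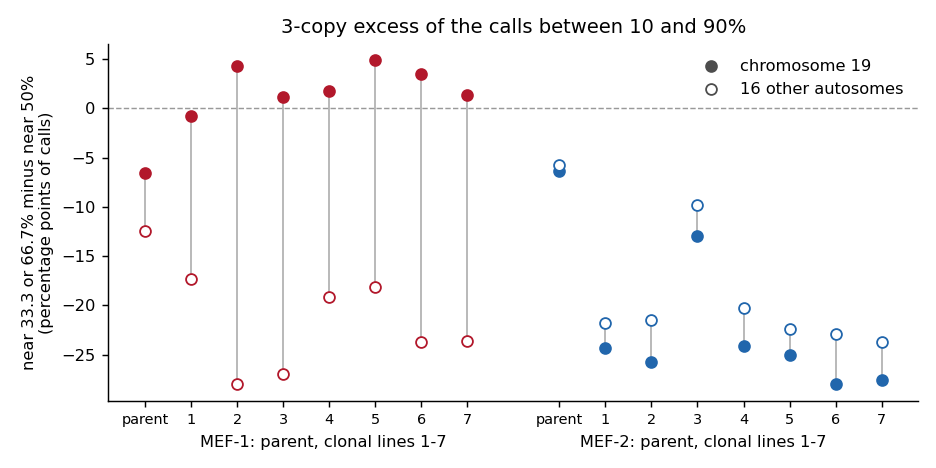
The 3-copy excess (y axis, percentage points of the calls between 10 and 90%) on chromosome 19 (filled) and on the 16 other autosomes (open) in each parental and clonal line (x axis). The filled MEF-1 clonal points lie between -0.771 and 4.89 and all MEF-2 clonal points between -27.9 and -9.78.

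In 10-Mb intervals the mean 3-copy excess of the MEF-1 clonal lines ran from 1.07 points (the first 10 Mb, 1281 CpGs) to 7.54 points (the last interval, 248 CpGs), and that of the MEF-2 clonal lines from -27.0 to -19.7. In no interval did the 7 and 7 lines overlap: the highest MEF-2 value of any interval was -8.00, and the lowest MEF-1 value of any interval was -4.70.

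CpGs at 50% in the other family gave a comparison in which MEF-1 levels played no part in the choice. A set of 646 chromosome 19 CpGs and 10308 CpGs elsewhere had mean levels of 40 to 60% over the MEF-2 clonal lines and lay at 35 to 65% in at least 5 of these 7 lines. In MEF-1 lines 1 to 7, 14.1, 15.6, 17.03, 14.4, 12.54, 15.2 and 15.2% of the chromosome 19 calls of this set lay within 10 points of 50%, against 25.2 to 28.1% elsewhere. Within 5 points of 33.3% lay 5.88 to 9.29% on chromosome 19 and 4.39 to 5.73% elsewhere, and within 5 points of 66.7% lay 7.89 to 10.7% and 5.43 to 6.75%. For this set the 3-copy excess was taken over all calls, also those outside 10 to 90%, so its size cannot be compared with the values above. The 3-copy excess at these CpGs was higher on chromosome 19 than elsewhere in 7 of 7 lines, by 17.2 points ± 2.75 (SD, n = 7, exact two-sided sign-flip test, p = 0.0156, the smallest 7 lines allow). It was 9.87 points at 20 reads, thinned to 20, and 18.1 points without MEF-1 lines 1, 4 and 5 (exact sign-flip test, p = 0.125, the smallest 4 lines allow). Calls at 0 to 10% made up 16.1 to 18.1% on chromosome 19 and 17.1 to 20.5% elsewhere, and calls at 90 to 100% made up 30.5 to 33.7% and 30.04 to 31.7%.

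Levels in the clonal lines were next set beside those of their parental line. On all reads and without thinning, at the 3740 chromosome 19 members with a MEF-1 parental level of 40 to 60%, MEF-1 clonal lines kept 35.1% ± 2.81 (SD, n = 7) at 40 to 60%, with 32.0% ± 2.45 below and 32.9% ± 1.28 above. At the members chosen in the same way in the MEF-2 parental line, MEF-2 clonal lines kept 44.3% ± 1.36 (SD, n = 7), and the MEF-1 lines kept 49.1% ± 1.90 on the other autosomes. The range on chromosome 19 was 30.8 to 39.7% in MEF-1 and 42.1 to 46.0% in MEF-2, without overlap.
The study judged fidelity by windows at 0 to 10, 40 to 60 and 90 to 100%, which are made for 2 copies, and a call in 1 of them is called faithful here. At CpGs with 40 or more reads and a parental level of 10 to 90% (2661 on chromosome 19 for MEF-1 and 3207 for MEF-2), with calls thinned to 40 reads, faithful calls made up 45.998, 48.6, 48.3, 44.3, 44.0, 48.1 and 49.8% on chromosome 19 of MEF-1 lines 1 to 7 and 59.4 to 68.6% elsewhere in these lines. In the MEF-2 lines they made up 59.7 to 70.3% on chromosome 19 and 56.8 to 67.1% elsewhere. The chromosome 19 share minus that of the rest was thus -20.05 to -13.7 points in the MEF-1 lines and 2.80 to 3.93 points in the MEF-2 lines, a difference of -19.7 points between the families (exact permutation test over lines, p = 0.000583, and 0.000971 after adjustment). With wider windows (0 to 20, 30 to 70 and 80 to 100%) this difference was -7.62 points (exact permutation test, p = 0.000583). With windows made for 3 copies (0 to 10, within 5 points of 33.3 and 66.7, and 90 to 100%), the difference had the opposite sign: 48.1% ± 2.32 (SD, n = 7) of MEF-1 calls on chromosome 19 were faithful and 46.0% ± 2.17 elsewhere. The MEF-2 lines had 51.8% ± 1.61 (SD, n = 7) on chromosome 19 and 50.9% ± 1.21 elsewhere, and the difference between the families was 1.18 points (exact permutation test, p = 0.0554). From the windows for 2 to those for 3 copies, the mean MEF-1 share on chromosome 19 changed little, from 47.0 to 48.1%. The change of sign came from lower shares in the others: from 63.5 to 46.0% elsewhere in MEF-1 and from 68.1 to 51.8% on chromosome 19 of MEF-2.

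Few CpGs held 1 such level in every line. With the calls thinned to 40 reads, 2.70 per 1000 chromosome 19 CpGs were within 10 points of 33.3% in all 7 MEF-1 lines, 0.614 per 1000 within 10 points of 50% and 4.79 per 1000 within 10 points of 66.7%. The other autosomes had 0.380, 7.22 and 0.345 per 1000 in the same lines, and chromosome 19 of MEF-2 had 0.491, 5.77 and 0.369 per 1000. On all reads, 49 CpGs lay at 23 to 43% and 99 at 57 to 77% in all 7 MEF-1 lines, whereas 5 and 1 did so in all 7 MEF-2 lines. Conversely, 3 CpGs lay at 40 to 60% in all MEF-1 lines and 78 in all MEF-2 lines.
Among the CpGs with 40 or more reads, no run of 3 or more neighbours held a level near 33.3 or 66.7% in all 7 MEF-1 lines, and CpGs of lower depth were not examined for this. The 49 CpGs near 33.3% had a mean MEF-2 level of 40 to 60% in 14 cases, of 0 to 10% in 11 and of 90 to 100% in 6. Among the 99 near 66.7% these numbers were 33, 6 and 24. The MEF-1 parental line was at a median of 39.1% at the former (19.8 to 52.8%) and 64.7% at the latter (44.5 to 87.2%).

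Of these sites, 7 lay at 40 to 60% in all 7 MEF-2 lines, and they are named here although they were picked after their values were seen. The CpG at position 34879829, 374 bp from the start of the pantothenate kinase gene Pank1 and outside annotated genes, was at 39.4, 34.3, 25.8, 38.0, 37.7, 32.2 and 40.6% in MEF-1 lines 1 to 7. It was at 46.9, 55, 51.8, 56.2, 51.6, 45 and 55% in MEF-2 lines 1 to 7. It was the only 1 of the 7 below 50% in MEF-1.
The CpG at position 4854469, 661 bp from the start of Ctsf (cathepsin F, a lysosomal protease), had 65.4, 67.0, 69.7, 70.7, 64.2, 70 and 64% in MEF-1. Its MEF-2 values were 49.1, 53.2, 42.9, 44.4, 50.0, 56.0 and 54.5%. The other 5 sites had mean MEF-1 levels of 65.5 to 66.9% and mean MEF-2 levels of 50.9 to 53.8%. They lay 15195 bp from the start of the kinase gene Jak2, in an exon of the lysosomal lipase gene Lipa, in an exon of the non-coding gene E030044B06Rik, in a UTR of the signalling gene Wnt8b and in an intron of the actin-binding gene Ablim1. The MEF-1 parental line was at 32.5% at the Pank1 site and at 52.3 to 62.9% at the others. Reads behind these levels numbered 62 to 181 per MEF-1 line and 40 to 121 per MEF-2 line.

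**Figure D4:**
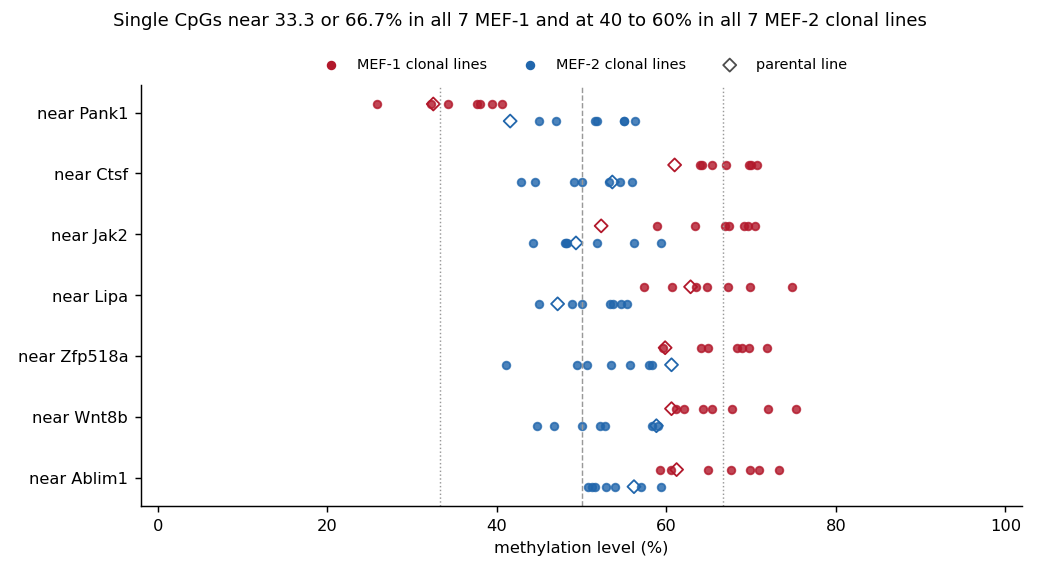
Methylation level (x axis, %) of the 7 single CpGs in each clonal line (points) and parental line (diamonds), named by the nearest gene start (Zfp518a for the site in E030044B06Rik), with dotted lines at 33.3 and 66.7% and a dashed line at 50%. The MEF-1 points of the Pank1 site lie between 25.8 and 40.6%, those of the other sites between 57.3 and 75.3%, and all MEF-2 points between 41.1 and 59.4%.

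A level near 33.3 or 66.7% in 1 line did not fix the level in another. At 2240 of the 8140 CpGs at least 1 MEF-1 line lay within 5 points of 33.3 or 66.7%. Of these, 372 were near 33.3% in some lines and near 66.7% in others, 494 reached 0 to 10% in at least 1 line and 552 reached 90 to 100%. Such levels in single lines were not particular to MEF-1. Within 10 points, 1689 of the 8140 CpGs had a MEF-1 line near 33.3% and 1807 near 66.7%, beside 2013 and 1989 with a MEF-2 line there. Where neighbouring CpGs at most 100 bp apart both lay near 33.3 or 66.7% in a MEF-1 line (58 to 77 pairs per line), they were on the same side of 50% in 58.6 to 72.3% of pairs.
The variance of levels between the lines, beyond read sampling and as a share of its maximum at the mean level, was computed for CpGs with a parental level of 10 to 90%. In MEF-1 it was 0.0785 ± 0.00620 (jackknife SE over 7 lines) on chromosome 19, beside 0.115 ± 0.00990 on the other autosomes. In MEF-2 it was 0.160 ± 0.0132 and 0.164 ± 0.0120. Chromosome 19 thus had 0.685 times the share of the other autosomes in MEF-1 and 0.978 times in MEF-2, and these ratios were not tested.
CpGs near 33.3 or 66.7% in 3 or more MEF-1 lines (768 sites) lay in promoters in 12.2% of cases, in introns in 41.8% and between genes in 37.9%. All 8140 CpGs of this depth had 19.5, 40.5 and 31.5% there. In promoters lay 48.3% of the 1893 CpGs at 0 to 10% in all MEF-1 lines and 6.91% of the 2518 CpGs at 90 to 100% in all of them.

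The mean level of the chromosome was slightly higher in MEF-1. Over all 53605 members it was 42.8, 42.48, 42.4, 42.9, 43.03, 42.1 and 42.8% in MEF-1 clonal lines 1 to 7 and 41.4, 41.3, 40.3, 41.6, 41.8, 41.0 and 41.0% in MEF-2. The MEF-1 lines were higher by 1.44 points without overlap (exact permutation test over lines, p = 0.000583, and 0.000971 after adjustment), and the other autosomes differed in the same direction, with 44.0% ± 0.368 (SD, n = 7) against 42.4% ± 0.489. Relative to the other autosomes, the chromosome 19 level of MEF-1 minus that of MEF-2 was -0.189 points (exact permutation test, p = 0.0262, adjusted p = 0.0262). This small difference was lost with other minimum read numbers, with pooled reads, without the first 10 Mb of the chromosome, without MEF-1 lines 1, 4 and 5, with the replicate number as a block and when MEF-1 line 1, 5 or 6 or MEF-2 line 5 was left out (exact permutation or sign-flip tests, p = 0.0507 to 0.222).

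At an adjusted p under 0.05 in a quasi-binomial model, 11185 chromosome 19 CpGs were called, which is 20.9% against a background of 20.2% over all 17 chromosomes. Of these, 6364 (11.9%, background 11.6%) had the higher level in MEF-1 and 4821 (8.99%, background 8.55%) in MEF-2. These shares are near the background. With a minimum of 20 reads, where fewer CpGs were tested, 6773 CpGs were called, and no share over all chromosomes was computed at this setting. Called CpGs differed by a median of 37.0 points, below the medians of the 16 other autosomes (38.0 to 39.4 points). Called differences of at least 20 points were found at 9642 of the 53605 CpGs tested. This compares with 9701 of 51941 on chromosome 14 and 7245 of 43760 on chromosome 16. Neighbouring calls formed 358 regions of 3 or more CpGs that were higher in MEF-1 and 245 that were higher in MEF-2. Regions were not counted on the other chromosomes, so these numbers have no background.

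The region with most CpGs was at Trpm6, which encodes a magnesium channel, and held 19 CpGs (chr19:18749530-18749896) within the promoter. Its level was 92.3% at the lowest, 96.1% at the median and 97.8% at the highest MEF-1 clonal line, against 39.7, 49.0 and 58.5% in MEF-2, a difference of 45.7 points. The parental lines were at 90.4% (95% Wilson interval 88.1 to 92.3%) and 50.5% (46.7 to 54.2%). The MEF-1 parent thus lay slightly below all of its clonal lines, and the MEF-2 parent within the range of its own. A UTR stretch of the G protein gene Gna14 (chr19:16436057-16436542, 12 CpGs) was at 44.6 to 62.4% in MEF-1 and 0 to 7.89% in MEF-2. An intergenic stretch (chr19:12008760-12009133, 9 CpGs) 27607 bp from the nearest start, that of an olfactory receptor gene, was at 76.7 to 85.3% and 10.3 to 31.3%.
The largest difference among the 9 regions described was in the intron of Prkg1, a cGMP-dependent protein kinase, whose 43 bases with 8 CpGs are printed above. The 7 MEF-1 lines lay at 93.3 to 95.8% and the 7 MEF-2 lines at 3.75 to 33.1%, a difference of 74.6 points. The MEF-2 parental line was at 36.3% (95% Wilson interval 31.3 to 41.6%), above all of its clonal lines. The MEF-1 parental line was at 88.2% (83.7 to 91.6%), below all of its own. Calls of neighbouring CpGs on the same read entered these intervals and those at Trpm6 separately, so they are too narrow. The differences between the parents and their clonal lines were not tested. Near the lipid kinase gene Pi4k2a (chr19:42089205-42089360, 8 CpGs, 1110 bp from the start), MEF-1 lines were at 52.7 to 67.0% and MEF-2 lines at 1.36 to 7.38%.

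The other regions were higher in MEF-2. In a UTR of the transcription factor gene Dmrt3 (chr19:25623726-25623948, 9 CpGs) the MEF-1 lines lay at 4.32 to 20.1%. The MEF-2 lines lay there at 47.6 to 64.7%. The promoter of Dmrt3, whose start is 13189 bp from this region, was called in the opposite direction. Its level ranged from 14.7 to 24.2% across MEF-1 lines, against 2.26 to 14.3% across MEF-2 lines. The exon of Syt7, a calcium sensor of vesicle release, which is UTR in some transcripts (chr19:10426290-10426394, 9 CpGs), was at 20.4 to 26.7% and 61.6 to 76.7%. An intron of Gpam, which starts glycerolipid synthesis (chr19:55103656-55103974, 9 CpGs), was at 1.21 to 10.7% and 34.1 to 52.9%. The Emx2 intron printed above, in a homeobox gene of brain and urogenital development, was at 1.99 to 14.7% in MEF-1 and 31.6 to 60.8% in MEF-2. In none of these 9 regions did the lines of the 2 families overlap, which follows in part from their choice among called CpGs.

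**Figure D5:**
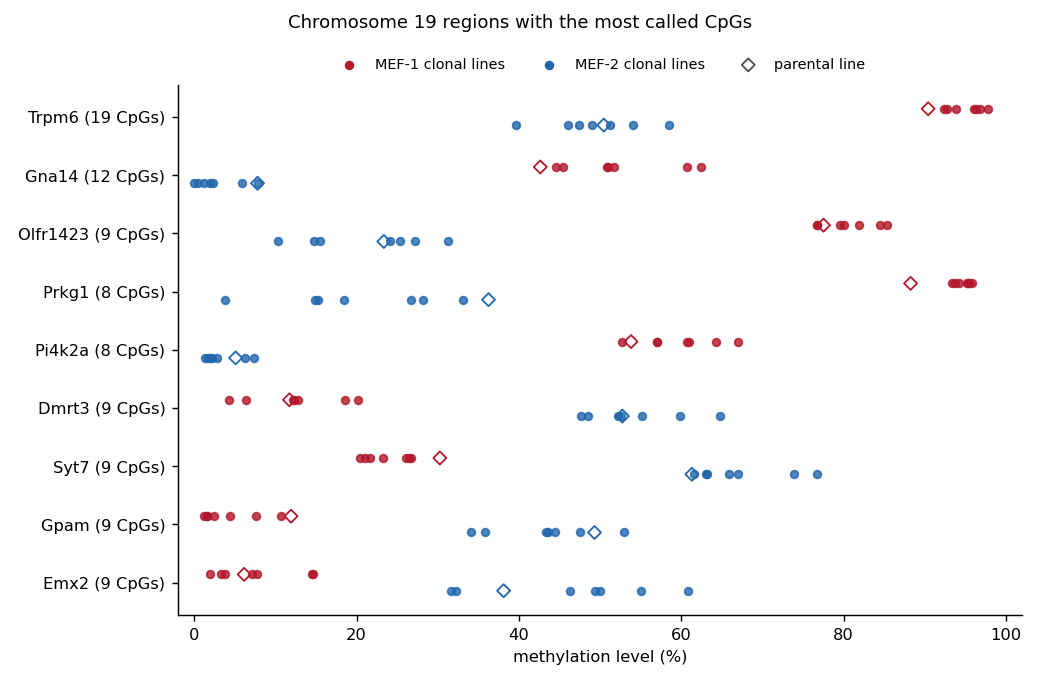
Methylation level (x axis, %) of the 9 regions described, by clonal line (points) and parental line (diamonds), each named by its gene or nearest start. MEF-1 points lie right of MEF-2 points from Trpm6 to Pi4k2a and left of them from Dmrt3 to Emx2.

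Promoters, from 1000 bp before to 500 bp after a transcript start, were measured for 506 protein-coding genes of chromosome 19. Only 1 start per gene was used, that with most measured CpGs, so a promoter level may belong to an alternative start. In the same model on counts summed per promoter, 240 (47.4%, background 42.9% over 13295 promoters) were called. Of the 506, 157 were called higher in MEF-1 (background 3615 of 13295, 27.2%). The other 83 were called higher in MEF-2 (background 2091 of 13295, 15.7%). Most differences were small, with a median of 5.53 points among the called promoters. This was below the median of 6.72 points among the 5706 promoters called over all 13295. A difference of 20 points was reached by 29 of the 240 called promoters and by 600 of these 5706. The promoters named next were those with the largest called differences and no overlap between the families, and their adjusted p ran from 1.73e-08 (Trpm6) to 0.000206 (Gal3st3). The median level over all 506 was 7.36% in the MEF-1 and 6.92% in the MEF-2 lines.
The promoter of Acy3, an aminoacylase, measured over 4 CpGs, was at 55.4 to 69.9% in MEF-1 and 3.12 to 16.2% in MEF-2. Lrrn4cl was at 37.1 to 72.7% and 0 to 13.3%, and the olfactory receptor gene Olfr1499 at 51.8 to 73.9% and 5.11 to 43.2%, also over few CpGs (3 and 4). The Trpm6 promoter, over 37 CpGs, was at 89.0 to 92.8% and 44.4 to 57.04%. The muscarinic receptor gene Chrm1 was at 71.7 to 83.9% and 35.3 to 45.9%.
In the other direction, the Stambpl1 promoter, of a deubiquitinating enzyme, was at 30.3, 33.1 and 37.2% in the lowest, median and highest MEF-1 line and at 71.5, 80.3 and 85.1% in MEF-2 over 18 CpGs. The promoter of 2310034G01Rik, over 3 CpGs, was at 25.2 to 47.3% and 59.1 to 80.6%. Prlhr, a neuropeptide receptor gene, was at 6.10 to 15.4% and 42.2 to 52.4%, the neuronal transcription factor gene Npas4 at 35.9 to 50.7% and 64.5 to 72.5%, and Gal3st3, a sulfotransferase gene, at 11.01 to 24.4% and 31.9 to 51.1%.
The level classes of single CpGs were also counted for promoter averages. All 7 MEF-1 lines lay within 10 points of 33.3% at 26 of the 506 promoters, of 50% at 5 and of 66.7% at 8, and the MEF-2 lines at 22, 6 and 6. Per 1000 promoters this is 51.4, 9.88 and 15.8 in MEF-1, beside 36.2, 18.9 and 16.4 on the other autosomes, and 43.5, 11.9 and 11.9 beside 29.0, 13.1 and 11.4 in MEF-2.

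Groups of chromosome 19 genes are given by the number of their promoters called, to be read against the 42.9% over all promoters. Among genes of growth control and signalling, 6 of 19 measured promoters were called, 3 in each direction, with a median difference of 0.02 points. Pdcd4, an inhibitor of translation, was at 24.4% ± 4.36 over the MEF-1 lines and 5.18% ± 3.64 over the MEF-2 lines (SD, n = 7), and the NF-kappaB subunit gene Rela at 23.5% ± 1.56 and 35.4% ± 3.62. The gene of the AP-1 transcription factor subunit Fosl1 was at 1.298% ± 0.196 and 1.27% ± 0.265 and was not called, nor was the kinase gene Jak2 at 1.85% ± 0.550 and 1.96% ± 1.01. Housekeeping genes had 6 of 20 called (4 higher in MEF-1, median difference 0.08 points). Their largest called difference was at the phosphatase gene Ppp1ca, with 20.3% ± 3.80 and 33.5% ± 5.55, and Rad9a was level at 10.4% in both families.

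Developmental regulators had 5 of 16 called, 3 of them higher in MEF-1, with a median difference of -0.05 points. The homeobox gene Nkx2-3 was at 30.6% ± 3.39 and 16.2% ± 2.73, and the growth factor gene Fgf8 at 22.98% ± 1.97 and 13.4% ± 3.74. The homeobox gene Tlx1 was at 7.98% ± 2.08 and 8.02% ± 4.34 and was not called. The promoter of Emx2 was at 3.39% ± 2.13 and 3.44% ± 1.03, also not called, although its intron held a region. Genes of chromatin and DNA methylation had 4 of 10 called, all 4 higher in MEF-1, with a median difference of 0.81 points. The histone demethylase gene Kdm2a was at 76.9% ± 2.29 and 69.0% ± 4.74, and the remodeller gene Smarca2 at 2.45% ± 0.555 and 1.18% ± 0.418.
Genes of matrix, adhesion and contraction had 8 of 15 called (6 higher in MEF-1). The protease gene Pcsk5 was at 34.6% ± 1.81 and 12.7% ± 5.89, whereas the annexin gene Anxa1 was at 2.03% ± 0.850 and 20.3% ± 15.4 over 4 CpGs, with a range of 2.99 to 46.7% in MEF-2.

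Neuronal genes had 9 of 12 called (5 higher in MEF-1, median difference 2.26 points). Besides Chrm1 and Npas4, the epilepsy gene Lgi1 was at 73.3% ± 6.80 and 41.0% ± 20.7 over 3 CpGs. MEF-2 line 5 was at 81.6%, within the MEF-1 range of 62.4 to 82.1%, and the other MEF-2 lines at 24.5 to 49.7%. Genes of liver, pancreas and kidney had 5 of 8 called (2 higher in MEF-1). Gldc, of glycine breakdown, was at 28.3% ± 6.06 and 4.64% ± 2.23, and Hoga1, of hydroxyproline breakdown, at 20.9% ± 3.20 and 43.1% ± 6.67. Blood lineage genes had 4 of 6 called (3 higher in MEF-1), with the B-cell adaptor gene Blnk at 56.5% ± 2.74 and 33.5% ± 3.37. Of the germline genes, Tdrd1 of the piRNA pathway was called at 56.0% ± 4.10 and 71.9% ± 7.71, and Insl6 was not, at 16.8% ± 5.29 and 11.6% ± 3.96. The median over all 13295 promoters was a difference of 0.44 points.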

How the data were processed

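The 16 deposited files give, per CpG, the counts of methylated and unmethylated reads that the authors obtained by target capture bisulfite sequencing (SureSelectXT Methyl-Seq), with Trim Galore 0.6.0 and Bismark on mm10, a mapping quality filter and both strands combined. Whether PCR duplicates were removed is not given in the sources used here, so intervals cover counting error only. Intervals of regions count CpGs on the same read as separate calls and are too narrow. A methylation level is the methylated share of all reads at a CpG. CpGs with 10 or more reads in all libraries were kept. The deposited series table was not used, because it holds no chromosome 19 CpGs.

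Samples were grouped by their labels. The members, gene lists and tests were chosen with earlier results of these data known. Values per line were compared by exact permutation tests over the 14 clonal lines, or a sign-flip test over 7. CpGs and promoters (1000 bp before to 500 bp after a start, 3 or more CpGs) were tested in a quasi-binomial logistic model with a dispersion of at least 1 and Benjamini-Hochberg adjustment over all 17 chromosomes. Regions were runs of 3 or more called CpGs at most 300 bp apart. Named regions were the 5 with most CpGs and named promoters the 5 with the largest difference without overlap, in each direction, except that 1 of the 5 regions higher in MEF-2 is not reported here. List examples were drawn from called members with the largest and uncalled members with the smallest difference. Alternatives changed the minimum of reads, thinning, windows, reference chromosomes and lines, and the replicate number as a block. The model was tested on simulated data in which the spread between lines was assumed and not taken from these lines. It called 49 of 100 simulated differences of 40 points, 91 of 100 of 60 points and 1 of 53405 CpGs without a difference. Python 3.11.15, numpy 2.4.6, scipy 1.17.1, pandas 2.3.3 and matplotlib 3.10.9 were used, with the GRCm38 genome, whose bases were CG at 53602 of the 53605 member positions. Promoter sequences were read from this genome.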

Additional observations from a re-analysis of the deposited data

Results flagged for a closer look

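In 51 sets of 7 clonal lines, 3 had 1 line far from the other 6, and chance alone gives about 1 in 20. The 3-copy excess of MEF-2 line 3 was -13.0 points on chromosome 19, where the other MEF-2 lines had -27.9 to -24.1, and -9.78 points on the other autosomes, where they had -23.7 to -20.3. The Prlhr promoter was at 52.4% in MEF-2 line 6 and at 42.2 to 45.4% in the other MEF-2 lines.

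The difference of chromosome 19 from the other autosomes was not the same in the families for 3 measures. By exact permutation tests over the lines, MEF-1 minus MEF-2 was 28.3 points for the 3-copy excess (p = 0.000583), -19.7 points for the faithful share (p = 0.000583) and -0.189 points for the mean level (p = 0.0262). The last of these no longer passed under 10 of the 21 alternatives run.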

How the results depend on the processing

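The mean level of the chromosome, the 3-copy excess and the count of called promoters kept their direction and their call or size under every alternative run. The 3-copy excess relative to the other autosomes lay between 17.9 (20 reads, thinned to 20) and 39.98 points (calls not thinned), and called promoters numbered 175 to 242. The faithful share changed sign only with windows for 3 copies (1.18 points, exact permutation test, p = 0.0554), and with wider windows (0 to 20, 30 to 70 and 80 to 100%) it was -7.62 points, and -24.35 without thinning. Called CpGs fell to 6773 with a minimum of 20 reads, where fewer CpGs were tested, and otherwise numbered 8242 to 13908. Shares over all chromosomes were not computed under the alternatives, so the counts of CpGs and promoters called there have no background. The excess at CpGs near 50% in MEF-2 was 9.87 points with 20 reads, thinned to 20, 11.6 with narrower windows and 25.8 without thinning, and 18.1 points without MEF-1 lines 1, 4 and 5 (exact sign-flip test, p = 0.125, the smallest that 4 lines allow).

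The relative mean level of -0.189 points passed the threshold least firmly. It was -0.116 with a minimum of 5 reads, -0.143 with 20, -0.100 with pooled reads, -0.161 without the first 10 Mb and -0.120 without MEF-1 lines 1, 4 and 5, none of which passed, and the cause was not tested. Against chromosomes 3, 4, 6 and 9 alone it was -0.403. Leaving out 1 line gave -0.227 to -0.144, and the call was lost without MEF-1 line 1 (-0.165), 5 (-0.169) or 6 (-0.174) or MEF-2 line 5 (-0.144). Leaving out 1 line gave 1.296 to 1.54 points for the mean level, -20.1 to -19.1 for the faithful share, 27.1 to 29.6 for the 3-copy excess, 16.01 to 17.8 at CpGs near 50% in MEF-2, 10321 to 10654 CpGs and 224 to 240 promoters.

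With the replicate number as a block the relative mean level stayed at -0.189 points but no longer passed (exact sign-flip test, p = 0.0938), and 8796 CpGs and 221 promoters were called. The labels do not say that equal numbers share anything, deviations of same-numbered lines correlated at -0.00846 to 0.0147, and 0 of 7 lines correlated best with their own number. Depth limits single levels: a CpG at the minimum of 10 reads has a level in steps of 10 points. Each parental value rests on 1 library.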

Other observations

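Chromosome 19 was not alone in an altered coverage. Chromosome 5 had a relative coverage of 1.34 in MEF-1 line 7 and 1.02 to 1.07 in the other MEF-1 lines, with a 3-copy excess of -4.76 points against -28.9 to -18.8. Chromosome 15 had 1.26 in MEF-1 line 5 and 1.02 to 1.07 in the others, with -11.0 points against -32.6 to -21.2. Chromosome 13 had 1.15 in MEF-1 line 1, with -16.2 points. These are single lines, and the differences were not tested.

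Only the other autosomes that the study kept were counted next. Among them, 12 further pairs of a MEF-1 line and a chromosome had a relative coverage under 0.9 (0.771 to 0.894). Their 3-copy excess was -23.4 to 4.70 points. Chromosome 17 in line 1 had the coverage 0.814 and the highest of these values. On the same autosomes, pairs at 0.9 to 1.1 had a median of -23.6 points in MEF-1 (97 pairs, -35.5 to -12.8). In MEF-2 their median was -21.6 points (109 pairs, -31.8 to -7.49). The chromosome 19 values of the MEF-1 lines, -0.771 to 4.89, lay above all values of these pairs. In MEF-2, line 3 had a relative coverage of 0.766 for chromosome 2 and 0.763 for chromosome 14, with a 3-copy excess of 1.94 and 3.13 points, and line 4 had 1.15 for chromosome 10, with -18.1 points.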
